A study of Mus musculus with 2 samples.

Results

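TOBF1 peaks were examined at 5 genes whose products silence retroelements and build heterochromatin in mouse embryonic stem (ES) cells, namely Rif1, Trim28, Setdb1, Zfp57 and Cbx5, out of 21887 protein-coding genes. A peak was assigned to a gene when its midpoint lay inside the gene's RefSeq span or within 20 kb of it. TOBF1, the product of A830080D01Rik, was tagged in a BAC, a long cloned stretch of genomic DNA that is added to the cells, and was precipitated with an antibody against GFP. The R1/E cells were grown in serum medium with LIF, which keeps ES cells undifferentiated, and chromatin was crosslinked with formaldehyde and DSG. The study has 1 TOBF1 library and 1 input library made from the same construct without antibody; the labels do not say whether the line was 1 clone. The TOBF1 peak list was analysed here, and no file of the input or of untagged cells was used.

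With 1 library there is no replicate error and no test between groups, so counts at the members are set beside the share of all protein-coding genes counted the same way. The list holds 12181 peaks, 12012 of them on chromosomes, with a median width of 216 bp and scores from 1.30 to 216.1 (median 9.97). The score is the authors' own value per peak, read as −log10 of a q-value, and the number of reads behind it is unknown. A peak list measures no expression, so the cell type was not checked by it; the ES cell genes Pou5f1, Sox2 and Nanog had 5, 2 and 2 peaks within 20 kb. TOBF1 binding and nonspecific signal at active genes cannot be told apart here.

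In ES cells, many retroelements are kept silent by KRAB zinc finger proteins, which bind DNA and recruit the corepressor TRIM28 (also called KAP1). TRIM28 brings in SETDB1, a methyltransferase of lysine 9 of histone H3, and the methylated histone is bound by HP1 proteins, of which HP1 alpha is the product of Cbx5. ZFP57 is a KRAB zinc finger protein that holds DNA methylation at imprinted loci through TRIM28, and RIF1, a factor of replication timing and DNA break repair, takes part in retroelement silencing in mouse ES cells.

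Peaks were found near 4 of the 5 genes, and none lay inside any of the 5. The windows held 18 peaks in all, 2 at Rif1, 5 at Trim28, 8 at Zfp57, 3 at Cbx5 and 0 at Setdb1, where 27.5% of all protein-coding genes had at least 1 peak within 20 kb. The same 4 genes had a peak within 1 kb of a gene end, against 2.67% of all protein-coding genes. This count of 4 was 1 within 500 bp of an end, 1 with only peaks at or above the median score, and 2 with peaks within 1 kb merged. The gene spans made up 43.3% of the length of the 5 windows (152 of 352 kb). Over all protein-coding genes, 13.5% had a peak inside the span, and 47.0% of the pairs of a gene and a peak within 20 kb had the peak inside.

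**Figure D1:**
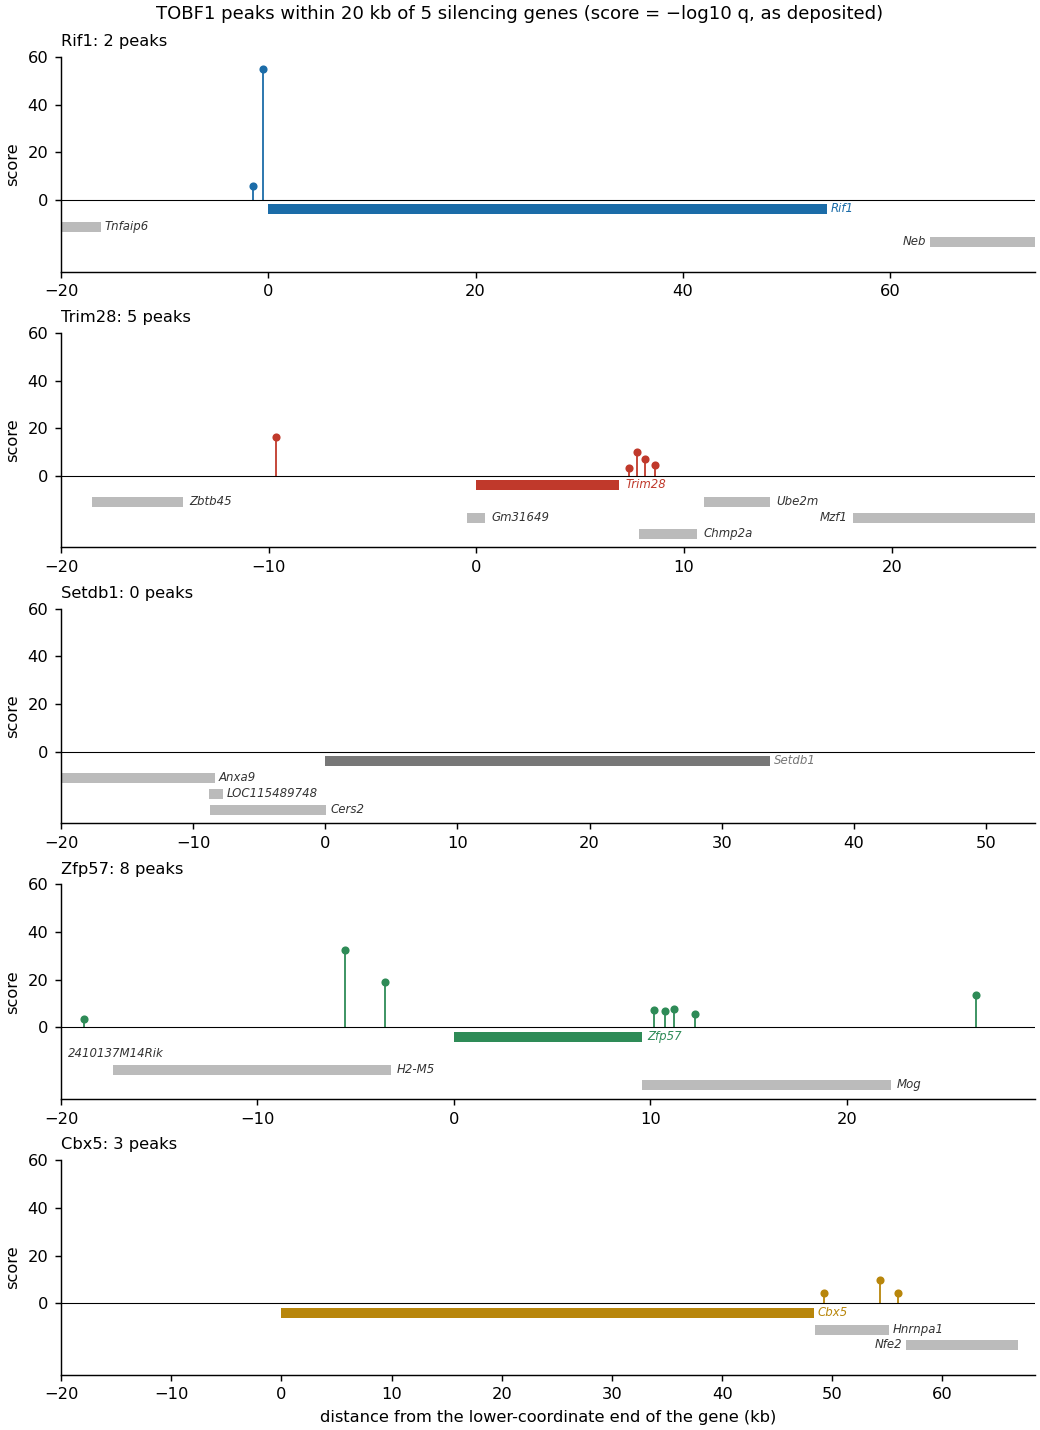
Peaks within 20 kb of each gene, drawn against the distance in kb from the gene's lower-coordinate end; the height of each point is the deposited score (−log10 q), the coloured bar is the gene and grey bars are other protein-coding genes, cut at the window's edge. The 18 peaks lie outside the coloured bars, the highest (55.1) directly below the lower end of Rif1, and the Setdb1 window is empty.

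Most of the 18 peaks lay closer to another gene than to the silencing gene itself. The silencing gene was the nearest protein-coding gene for 3 peaks, both at Rif1 and 1 of those at Trim28. Of the 4 silencing genes with a peak, Rif1 and Trim28 were thus the nearest gene to at least 1 peak. Over all protein-coding genes with a peak within 20 kb, 75.5% were. Another protein-coding gene contained the midpoint of 10 of the 18 peaks. Of all peaks on chromosomes, 41.9% lay inside a protein-coding gene. That share also covers peaks far from any gene and counts every gene, so the figures are not like for like. Of the 10, Chmp2a held 2, Mog 4, H2-M5 2 and Hnrnpa1 2. Both peaks at Rif1 had Rif1 as their nearest gene, and at Zfp57 and Cbx5 no peak had the silencing gene as its nearest.

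The scores of the 18 peaks had a median of 7.24, and 5 of them lay at or above the list median of 9.97, as did 50.9% of the peaks on chromosomes. These 5 were 1 peak at Rif1 (55.1), 3 at Zfp57 (32.7, 19.2 and 13.8) and 1 at Trim28 (16.1). All 3 peaks at Cbx5 were below the median. Widths ran from 135 to 530 bp with a median of 278 bp.

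**Figure D2:**
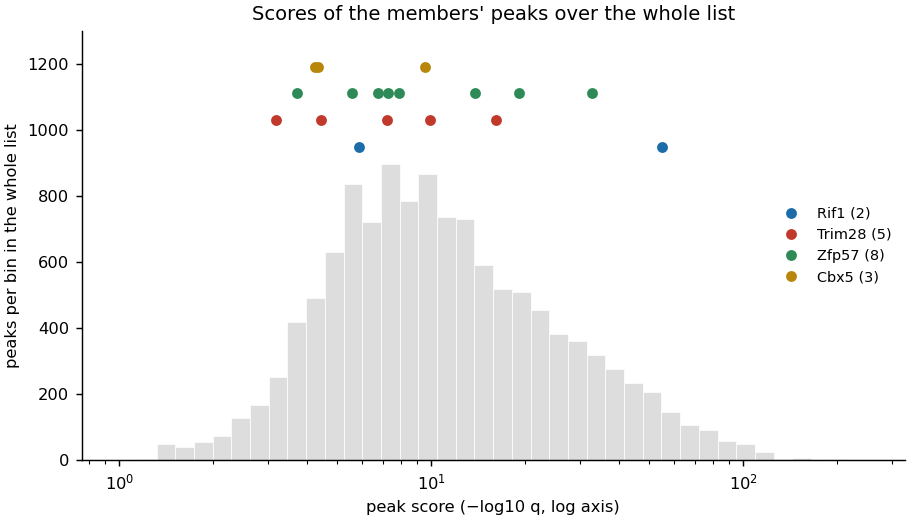
Histogram of the scores of all deposited peaks (horizontal axis, −log10 q on a log scale; vertical axis, peaks per bin), with the scores of the members' peaks as coloured points above it, 1 row per gene at arbitrary height. The 2 peaks of Rif1 lie at 5.86 and 55.1, and the points of the other genes lie between 3.18 and 32.7.

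Rif1 (chromosome 2, 52072815 to 52126769, mm10) carried the highest score of the 5 genes. The stronger peak (52072021 to 52072533) had its midpoint 538 bp below the lower end of the gene, a width of 513 bp and a score of 55.1. It ranked 474th in the list, which places it in the highest 3.89%. A weaker peak of score 5.86 (52071248 to 52071528) lay 1427 bp below the same end, separated from the first by 492 bp. Within 20 kb of a gene, 1.67% of protein-coding genes had a score at least as high as the stronger of these, and 9.73% had 2 or more peaks. Among genes of 0.5 to 2 times the length of Rif1, 34.0% had a peak within 20 kb.

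No other peak was found along the 54.0 kb of Rif1 or in the 20 kb above it. There the span of the muscle gene Neb, whose strand is not listed, lies 9871 bp from the upper end. The gene below, Tnfaip6, which encodes a secreted hyaluronan-binding protein, ends 16134 bp from Rif1 and had no peak inside it (named outside the rule, like Neb). In all, 3 peaks lay within 500 kb of Rif1, both of those described included, and 37.3% of protein-coding genes had as few or fewer; the median was 5 peaks.

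Trim28 (chromosome 7, 13024152 to 13031032, plus strand) had its peaks on both sides, with a group of 4 at the downstream end. The group spans 1.46 kb (13031411 to 13032866), and its scores from the lower coordinate upward were 3.18, 9.91, 7.22 and 4.43. Their midpoints lay 487, 846, 1257 and 1719 bp beyond the end of Trim28, with gaps of 79 to 155 bp between peaks. This stretch is where Trim28 and Chmp2a, a gene of the ESCRT-III membrane-remodelling complex on the minus strand, run towards each other, with ends 974 bp apart. The first peak is about as far from Chmp2a as from Trim28. The second has its midpoint 129 bp from the end of Chmp2a and reaches into that gene, and the last 2 lie inside it.

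The fifth peak at Trim28 (13014274 to 13014727, score 16.1) lay 9.65 kb upstream and had Zbtb45, a zinc finger gene, as its nearest gene at 4.45 kb. Around the start of Trim28, which a predicted gene on the other strand, Gm31649 (named outside the rule), overlaps, no peak was found. At least 5 peaks within 20 kb were present at 1.61% of protein-coding genes, and a score of 16.1 or more at 11.2%. Of genes with 0.5 to 2 times its length, 20% had a peak in the window. Within 500 kb of Trim28 there were 11 peaks, 5 of them those described, against a median of 5 over protein-coding genes. The 11 were not exceeded at 93.1% of protein-coding genes.

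The sequence before the start of Trim28 is shown because it is free of peaks while the opposite end of the gene carries 4. It gives the 250 bases upstream of the start in the RefSeq promoter table of GRCm38.p6, 5′ to 3′ on the gene's strand (chr7:13023902-13024151, plus strand). Capitals mark matches, on either strand, to the GC box (GGGCGG), to the sequence CCAAT, to the E-box (CACGTG), to the box TATAAA or to the octamer ATGCAAAT; matches were allowed to overlap.
Trim28: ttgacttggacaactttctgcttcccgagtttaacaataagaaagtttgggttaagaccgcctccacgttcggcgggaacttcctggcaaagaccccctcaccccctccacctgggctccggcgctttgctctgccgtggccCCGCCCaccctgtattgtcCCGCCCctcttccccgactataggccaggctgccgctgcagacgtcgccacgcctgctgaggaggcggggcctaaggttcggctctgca

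The Trim28 stretch held 2 GC boxes and none of the other 4 motifs, with 62.0% G or C and 17 CG pairs. Over the 32851 windows of the table, the median was 52.4% G or C and 6 CG pairs, and 32.7% held a GC box, 33.8% CCAAT, 6.02% CACGTG, 12.4% TATAAA and 1.60% the octamer in these 250 bases. Of the 7 promoter windows listed for 4 of the silencing genes, 0 overlapped a peak, and a peak overlapped 0.603% of all windows of 300 bases. These matches are a description of the letters in the window and not of bound sites.

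Zfp57 (chromosome 17, 37001163 to 37010729, plus strand) had 8 peaks in its window, the most of the 5 genes, and at least as many were found at 0.397% of protein-coding genes. On the upstream side, 2 of the stronger peaks lay 5.54 kb (36995453 to 36995788, score 32.7) and 3.52 kb (36997506 to 36997780, score 19.2) before the gene. Both are inside the span of H2-M5, a class I gene of the major histocompatibility complex on the other strand. They lay closer to the lower end of Zfp57 than to the listed start of H2-M5 (36989533), which is inside that span. Both were closer still to the upper limit of the H2-M5 span (36997955), which is its 5′ side on the minus strand. A weak peak (score 3.71) lay 18.8 kb upstream, 1.10 kb from 2410137M14Rik. A score of 32.7 or more within 20 kb was present at 4.63% of protein-coding genes.

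Downstream of Zfp57, 4 peaks formed a group of 2.30 kb (37011241 to 37013543), with scores of 7.27, 6.76, 7.91 and 5.58. They lay 645, 1204, 1625 and 2717 bp beyond the end of the gene and inside Mog, which encodes a myelin glycoprotein. Mog is on the minus strand, and the spans of the 2 genes are 11 bp apart. As at Trim28, the group sat where 2 genes run towards each other. All 4 peaks were inside the neighbour here, against 2 of 4 at Trim28. The remaining peak (37027634 to 37027837, score 13.8) lay 17.0 kb downstream, with Mog as its nearest gene at 4.34 kb.

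The table of start positions lists 3 starts for Zfp57, at 37001163, 37002525 and 37003666, all free of peaks. Among genes of 0.5 to 2 times the length of Zfp57, 20.7% had a peak within 20 kb. The region held 10 peaks within 500 kb, at or above the number at 90.4% of protein-coding genes, and 8 of these 10 were the ones described. The peaks at Zfp57 were thus a local accumulation.

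Groups of 4 or more peaks with gaps of up to 1 kb were uncommon in the list. They held 4.72% of the peaks on chromosomes, in 71 groups, and 8 of the 18 peaks described here, those beyond the ends of Trim28 and Zfp57. Peaks so close together can be pieces of 1 enriched stretch; merging those within 1 kb left 11 peaks at the 5 genes. All 8 had scores below the list median.

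**Figure D3:**
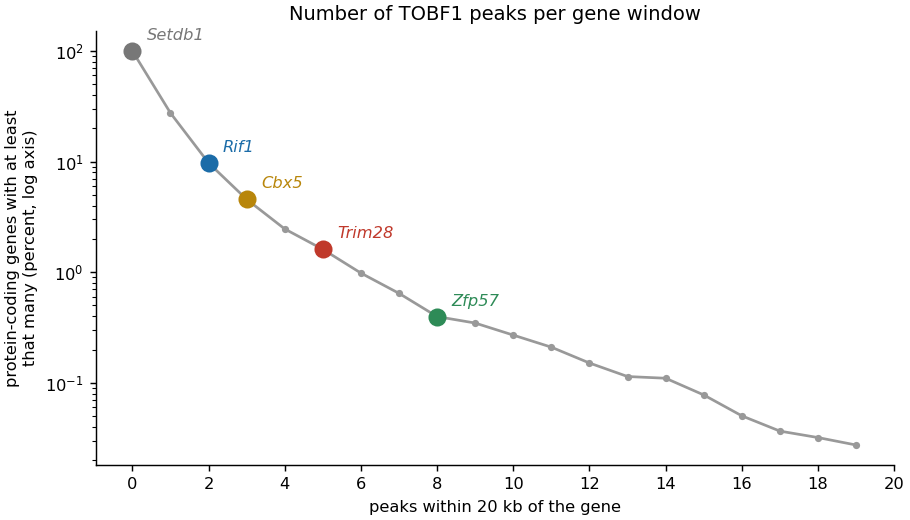
Percent of protein-coding genes (vertical axis, log scale) with at least the number of peaks on the horizontal axis within 20 kb; grey points are all genes up to 20 peaks, coloured points the 5 silencing genes. Zfp57 with 8 peaks lies at 0.397%, Trim28 with 5 at 1.61%, Cbx5 with 3 at 4.56% and Rif1 with 2 at 9.73%, while Setdb1 has 0.

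Cbx5 (chromosome 15, 103191546 to 103239904, minus strand) had 3 peaks, all upstream of its start and all of modest score. They lay 0.889 kb (103240726 to 103240860, score 4.35), 5.99 kb (103245695 to 103246084, score 9.59) and 7.62 kb (103247257 to 103247786, score 4.25) beyond the upper end of the gene. Cbx5 starts back to back with Hnrnpa1, which encodes an RNA-binding protein of splicing, and the spans of both genes are 39 bp apart. The first 2 peaks lie inside Hnrnpa1, the nearer of them 396 bp past its listed start and 941 bp from that of Cbx5. The third lies 0.691 kb from Nfe2, a transcription factor gene. At least 3 peaks were found at 4.56% of protein-coding genes, a score of 9.59 or more at 17.3%, and a peak within 20 kb at 32.0% of genes with 0.5 to 2 times the length of Cbx5.

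The region between Cbx5 and Hnrnpa1 is shown from both sides because the assignment of the nearest peak turns on it. The stretches are the 250 bases before each listed start (Cbx5, chr15:103239853-103240102, minus strand; Hnrnpa1, chr15:103240147-103240396, plus strand), 5′ to 3′ on each gene's own strand, from the RefSeq promoter table of GRCm38.p6. Capitals mark the same motifs as above.
Cbx5: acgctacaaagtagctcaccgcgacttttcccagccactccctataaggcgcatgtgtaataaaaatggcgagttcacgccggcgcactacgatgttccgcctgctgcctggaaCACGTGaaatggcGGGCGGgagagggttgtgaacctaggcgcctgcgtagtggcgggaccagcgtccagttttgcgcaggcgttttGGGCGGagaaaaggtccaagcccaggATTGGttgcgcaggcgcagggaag
Hnrnpa1: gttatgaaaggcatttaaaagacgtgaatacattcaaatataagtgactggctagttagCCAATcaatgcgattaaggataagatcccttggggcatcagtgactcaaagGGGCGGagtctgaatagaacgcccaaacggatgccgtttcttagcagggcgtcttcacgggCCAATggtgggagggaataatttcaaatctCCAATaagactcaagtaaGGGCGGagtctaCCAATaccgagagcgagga

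Before Cbx5 there were 2 GC boxes, 1 CCAAT and 1 CACGTG, with 22 CG pairs. Before Hnrnpa1 there were 2 GC boxes and 4 CCAAT, with 11 CG pairs. The nearest peak began 624 bases from the Cbx5 stretch and 330 bases from the Hnrnpa1 stretch, so neither held a peak. The second start listed for Cbx5, inside the gene, lay 25.1 kb from any peak.

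The other HP1 genes, chosen for closer description after their values were seen, also had peaks in their windows. Cbx3, which encodes HP1 gamma, had 4 peaks (scores 7.19, 14.3, 2.15 and 12.6), and Cbx1, which encodes HP1 beta, had 2 (43.1 and 13.8). Cbx3 too starts back to back with an hnRNP gene, Hnrnpa2b1, with spans 106 bp apart. At Cbx3, 2 of the peaks lay at the far end of Hnrnpa2b1 (51459131 to 51460803 and 51460882 to 51461019 on chromosome 6). The first had its midpoint 0.467 kb outside the span of Hnrnpa2b1, which begins at 51460434, but reached into it. The second lay inside it. Another peak lay inside Nfe2l3, and the last lay 2.15 kb beyond the end of Cbx3. At Cbx1 the strong peak (96780258 to 96780548 on chromosome 11) lay 8.28 kb upstream with Snx11 nearer at 2.69 kb, and the other was inside Cbx1. At Cbx5 and Cbx3 some of the upstream peaks therefore lay in or beside an hnRNP gene, while Cbx1 has no hnRNP gene in its window.

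**Figure D4:**
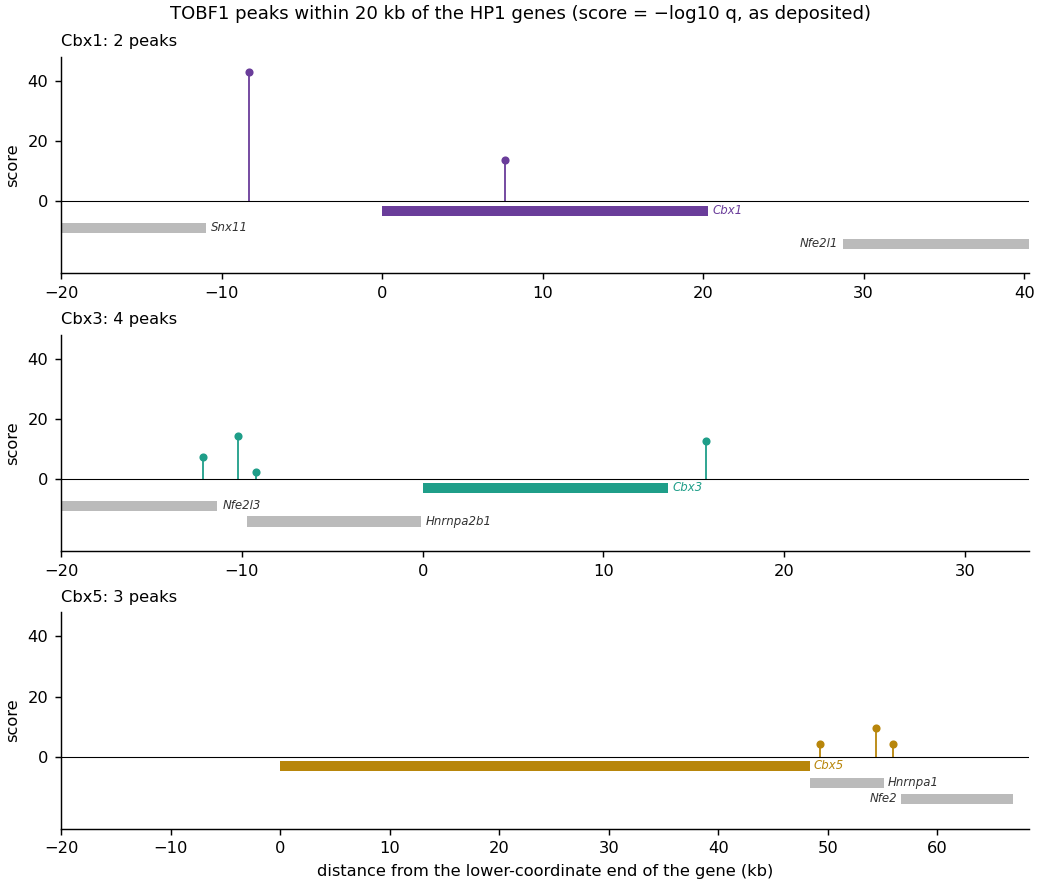
Peaks within 20 kb of the 3 HP1 genes against the distance in kb from each gene's lower-coordinate end; height is the deposited score (−log10 q), the coloured bar is the HP1 gene and grey bars are other protein-coding genes. The highest peaks at Cbx5 (9.59) and Cbx3 (14.3) lie in or beside the hnRNP gene that adjoins each, and the highest of all, 43.1, is 8.28 kb below Cbx1.

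Setdb1 (chromosome 3, 95323525 to 95357202, minus strand) had no peak in its window. The nearest was 296 kb above the gene (95653047 to 95653249, score 28.6), 3796 bp from Mcl1, an anti-apoptotic gene. On the other side the nearest was 397 kb away (94926555 to 94926706, score 12.3), 6452 bp from Selenbp1 (Mcl1 and Selenbp1, like the neighbours of companion genes below, are named outside the rule). A nearest peak at least as distant was found at 12.6% of protein-coding genes. Among genes of 0.5 to 2 times the length of Setdb1, 27.6% had a peak within 20 kb. The stretch around Setdb1 was not empty on a larger scale, as 4 peaks lay within 500 kb, near the middle of all genes (49.1% had as many or fewer).

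Relative to the direction of transcription, the 16 peaks at Trim28, Zfp57 and Cbx5 divided into 7 upstream, 9 downstream and 0 inside. Over the 17492 protein-coding genes with a listed strand, 27.6% of gene-peak pairs were upstream, 45.8% inside and 26.5% downstream. Many of the 16 lie close together and share a stretch, so they are not independent observations.

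A companion list of 45 further silencing genes, grouped by role, was counted in the same way. Companion genes below the 3 highest of a group, and those without a peak, are named to account for the lists and stand outside the naming rule. A peak lay within 20 kb of 22 of them (48.9%, exact 95% interval 33.7 to 64.2%), against 27.5% of all protein-coding genes. The list was chosen with earlier results of these data known, so the interval is no test of enrichment, and none was made. Companion genes were longer (median 29.2 kb) than protein-coding genes (median 17.2 kb). Of genes with 0.5 to 2 times the length of Setdb1 (33.7 kb), 27.6% had a peak. For the length of Rif1 (54.0 kb) it was 34.0%. Some companion genes are longer still, such as Cdyl at 214 kb, and the 48.9% was not matched for length. The median of the highest score at these 22 genes was 23.1, against 12.7 over all protein-coding genes with a peak in the window. The companion gene was itself the nearest gene to at least 1 of its peaks in 20 of the 22 cases, as were 75.5% of all protein-coding genes with a peak in the window. A peak inside the gene was found at 11 of the 45 (24.4%), against 13.5% of all protein-coding genes. Longer genes have more room for a peak, and neither this share nor the highest score was compared among genes of like length. A peak within 1 kb of an end was found at 1 of the 45, Pphln1, against 2.67% of all protein-coding genes.

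Partners of KRAB zinc finger repression had a peak in 7 of 10 cases, against 27.5% of all protein-coding genes. Their median span was 41.1 kb, against 17.2 kb over all protein-coding genes, so their windows are longer. The highest scores were at Trim24, a relative of Trim28 (39.2, 13.1 kb upstream), Zfp932, a zinc finger gene (25.7, 15.5 kb upstream), and Smarcad1, a chromatin remodeler (21.7, inside the gene). Trim24 had 4 peaks and Smarcad1 had 5, each with its own gene as the nearest. Of the other 7, Zfp568, Resf1, Atf7ip and Zfp809 had 1 peak each, with scores from 6.89 to 18.2, and Zfp445, Trim33 and Yy1 had none. Atf7ip, whose product is a partner of SETDB1, thus had a peak (score 8.88, inside the gene) where Setdb1 had none. The span of Atf7ip (92.1 kb) is longer than that of Setdb1 (33.7 kb).

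HP1 proteins and methyltransferases of histone H3 lysine 9 (median span 20.3 kb) had a peak in 6 of 9 cases, against the same 27.5%. The highest was inside Cdyl, a chromodomain gene (35853189 to 35853516 on chromosome 13, score 119, ranked 20th of the list), followed by Cbx1 (43.1) and Ehmt1 (35.4, inside the gene), which encodes GLP. Suv39h1 had a peak of 27.9 that lay 9.96 kb downstream and Wiz one of 22.8 inside the gene. Suv39h2, Ehmt2 and Setdb2 had none. Of the paired enzymes GLP and G9a, the gene of the first (Ehmt1, 129 kb long) had a peak. That of the second (Ehmt2, 15.6 kb), with a much shorter window, had none.

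The remaining groups had fewer genes with a peak. HUSH and MORC genes had 2 of 5, Pphln1, a HUSH subunit, with a peak of 27.8 inside the gene, and Morc3 with one of 15.0. A second peak at Pphln1 (8.40) lay 0.452 kb upstream of the gene. It was inside the neighbour Zcrb1, which is on the minus strand with its span 4 bp away. The HUSH genes Tasor and Mphosph8 had none. Among H3.3 chaperones and remodelers 2 of 7 had a peak, Daxx (33.9, 16.8 kb upstream, with Smim40 nearer) and Hells (23.4, 1.30 kb below the gene), while Atrx, Chd4, Hira, Chaf1a and Chaf1b had none. For the upkeep of DNA methylation it was 2 of 4, Dppa3 (31.7, 1.73 kb from the gene) and Dnmt1 (7.68, 18.7 kb upstream, with S1pr2 nearer).

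Of the histone deacetylation and demethylation genes, 1 of 5 had a peak, the demethylase gene Kdm1a (14.9, inside the gene), and Hdac1 and Hdac2 had none. The SUMO pathway had 2 of 5, Sae1 (28.7, inside the gene) and Uba2 (6.49, 1.05 kb upstream), which encode the 2 subunits of the SUMO-activating enzyme. With 4 to 10 genes per group the intervals on these shares are wide and overlap, for example 34.8 to 93.3% for the KRAB group and 5.27 to 85.3% for the SUMO group, so no group was told apart from another.

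**Figure D5:**
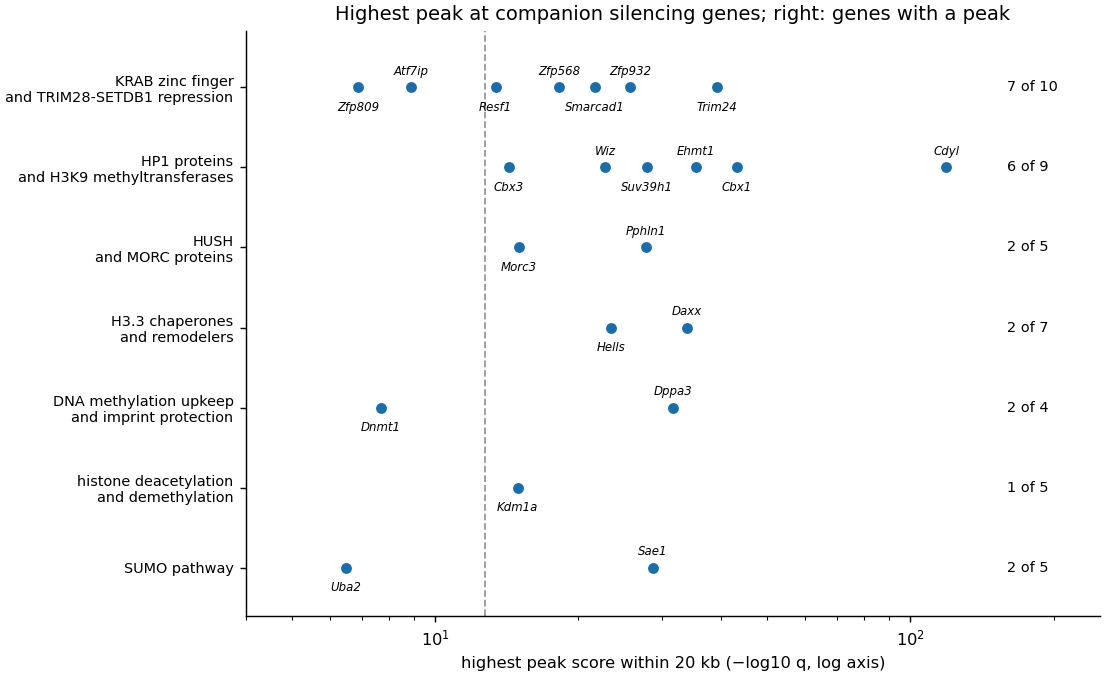
Highest score of a peak within 20 kb (horizontal axis, −log10 q on a log scale) at each companion gene with a peak, by role; the numbers at the right count genes with a peak of all genes in the group, and the dashed line is the median over all protein-coding genes with a peak, 12.7. Cdyl at 119 has the highest score, and the KRAB (7 of 10) and HP1 (6 of 9) groups hold the most genes with a peak.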

How the data were processed

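ChIP-Seq of BAC-tagged TOBF1 was compared with no other group here, since a peak list of 1 library was analysed and no file of the input was used. Per the submitters' processing notes, cutadapt, Bowtie2, MACS2 and bedtools were used on the mm10 build, with versions, order and settings not stated. Each deposited score was taken to be −log10 of a q-value, since the lowest value, 1.30, lies at −log10 of 0.05. Sequencing depth, the use of the input as control and the treatment of reads at repeated sequences have no statement in the labels or file, so no floor or read-based interval could be computed.

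A peak was counted at a gene when its midpoint lay in the gene's RefSeq span (GRCm38.p6, the patched assembly of mm10) or within 20 kb of it, and at a gene end when it lay within 1 kb of either end. The nearest gene was the protein-coding gene with the smallest distance from the peak's midpoint to its span. Strand and start positions came from a RefSeq promoter table that held 4 of the 5 members (Rif1 was not in it) and 17492 of the 21887 protein-coding genes. No exon annotation and no genome sequence were used. Peaks on scaffolds (169 of 12181) were left out.

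The members and lists were chosen with earlier results of these data known. The text names the 5 members with every peak, the protein-coding gene nearest to each peak, companion genes with a peak at an end, and the 3 genes of each companion group with the highest scores; further companion genes are named to account for the lists, and genes named outside this rule are marked. Shares have exact 95% intervals (Clopper-Pearson), which treat genes as independent. Alternatives were windows of 10 and 50 kb, ends of 500 bp and 5 kb, any overlap, merged peaks (gaps up to 1 kb), scores at or above the median, all gene types and leaving out chromosome X; counting only peaks whose nearest gene is the named one was added after the data were seen. Counting was tested on simulated data. Python 3.11.15, NumPy 2.4.6, pandas 2.3.3, SciPy 1.17.1 and matplotlib 3.10.9 were used.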

Additional observations from a re-analysis of the deposited data

How the results depend on the processing

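The total of 18 peaks at the 5 genes was 16 within 10 kb, 21 within 50 kb and 18 by any overlap. It was 5 with scores at or above the list median, 11 after merging peaks within 1 kb, and 3 when only peaks nearest to the silencing gene counted. The median of the highest score over the 4 genes with a peak, 24.4, became 29.1 within 50 kb. It was 32.7 with scores at or above the list median, where Cbx5 had no peak left and dropped out. The highest scores at Rif1, Trim28 and Zfp57 lie above the list median, so that filter could not change them. The 4 genes with a peak within 1 kb of an end became 1 within 500 bp (Trim28), 1 at or above the median score (Rif1) and 2 with merged peaks, whose midpoints move by construction; within 5 kb there were 4. The share of protein-coding genes with a peak, 27.5%, was 21.6% within 10 kb, 42.0% within 50 kb, 16.9% at or above the median score and 22.8% for genes of all types. The companion count of 22 ranged from 18 to 31 over its alternatives. Setdb1 had 0 peaks in each alternative. Of 49 values for single genes, 38 stayed within 1.5 times (scores: identical) and 11 moved. Some could not move by construction, so the 38 are no measure of stability. Merging keeps the highest score of each group of peaks. The 0 at Setdb1 could not rise within 10 kb or with only the higher scores. Nor could the highest scores at Rif1, Trim28 and Zfp57 change under that last filter. The loss of the highest score at Cbx5 under that filter is not among the 49. Depth is unknown, so a gene without a peak may lie under the detection limit. No paired analysis was possible because the series has 1 library per group.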

Other observations

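Gene families of the members and their neighbours, counted by symbol after the data were seen, are given as shares beside that of all genes. Zfp57, Trim28 and Cbx5 are themselves counted in their families. Genes named Zfp with a number, which include many KRAB zinc finger genes, had a peak within 20 kb in 118 of 394 cases (29.9%, exact 95% interval 25.5 to 34.7%), against 27.5% of all protein-coding genes, and a peak within 1 kb of an end in 13 (3.3%, against 2.67% of all protein-coding genes). The highest scores were at Zfp978 and Zfp988 (80.2 each), Zfp521 (80.0) and Zfp638 (77.4). Genes of the Trim family had one in 18 of 68 cases (26.5%, interval 16.5 to 38.6%), led by Trim44 (42.8), Trim2 (39.7) and Trim24 (39.2), and 4 of the 68 had a peak at an end (5.88%, against the same 2.67%). Of the Cbx genes, 4 of 8 had a peak (50.0%, interval 15.7 to 84.3%), Cbx7, a Polycomb gene, with 37.0 besides the 3 HP1 genes already described. Genes of the Setd family had one in 3 of 10 cases (30.0%, interval 6.67 to 65.2%). Of the 12 genes named H2-M, only H2-M5, the neighbour of Zfp57, had a peak within 20 kb.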
